A study of Homo sapiens with 4 samples.

Results

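ATP-binding cassette (ABC) proteins bind and hydrolyse ATP on a pair of conserved domains, and most use that cycle to move a substrate across a membrane. Members of the B, C and G subfamilies export drugs and drug conjugates from cells and are known for their part in chemotherapy resistance of breast cancer. Members of the A subfamily and several of the G subfamily move sterols and phospholipids, while ABCE1 and the F subfamily have no membrane domain and act on ribosomes. The genes described here are the 45 protein-coding genes of the 58735 genes in the count table whose symbol is ABC, a subfamily letter from A to G and a number. By known role they were sorted into 10 drug-efflux pumps, 17 lipid transporters, 9 transporters of mitochondria, peroxisomes and lysosomes, 5 other transport members and 4 members that do not transport.

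The libraries came from the triple-negative breast cancer line MDA-MB-231 with a TetOn-H2BeGFP construct, a doxycycline-driven histone reporter that is diluted as cells divide. All 4 groups shared this construct, induction with doxycycline at 5 µg/ml for 3 days, labelling with the dyes Claret and Violet, and a chase of 12 days, per the labels' protocols. Claret, eGFP and Violet are the sorts of the 1% of cells that had kept most of that label, which the submitters call slow-cycling cells, and Bulk is a sort with no gate on fluorescence. There was 1 library a group, so no value below has a replicate check, and an interval covers counting error only.

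Wherever values of the slow-cycling libraries follow one another below, their order is Claret, eGFP, Violet, and where 4 values follow one another the first is Bulk. Groups follow the sample titles, and the column headers of the deposited counts and FPKM name the same sorts as the titles. The treatment field of every sample names another sort than its title: it calls the library titled Bulk Claret, and the library titled Violet un-gated. Each direction below therefore rests on the titles and column headers. Grouping by the treatment field gave ABCC3 log2 ratios of -1.77, -0.13 and -0.089 in place of the 1.64, 1.68 and 1.77 given below. All 7 proliferation genes checked were lower in the 3 slow-cycling libraries than in the library titled Bulk: MKI67, a marker of cycling cells, had 6778 reads in Bulk and 689 to 995 elsewhere, BIRC5 had 2841 and 272 to 478, and MCM2 had 2218 and 363 to 480.

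Libraries held 15508179 to 16976909 reads assigned to genes, and mitochondrial genes took 4.18% of them in Bulk and 5.06% to 5.48% in the others. Markers of the line (VIM, CD44, EGFR, KRT18 and AXL) had 2690 reads or more in each library, and of 4 receptor and epithelial genes known to be low in it, ESR1 had 7 or fewer, PGR had 0, CDH1 had 3 or fewer and EPCAM had 47, 48, 61 and 28, higher in eGFP than in Violet by a log2 ratio of 1.06 and called by the rule given next. Of 7 markers of leukocytes, endothelium, fibroblasts and hepatocytes, COL1A1 had 284 to 363 reads, PECAM1 had 54 to 87 and the other 5 had 6 or fewer, and their summed reads were 348 in Bulk and 423 to 451 in the slow-cycling libraries. The part of these markers and of mitochondrial reads in the results was not tested.

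Of the 45 members, 30 had a mean of at least 1 CPM (reads scaled to library size) over the 4 libraries and were tested with the other genes above that level. As 3 of the 4 are slow-cycling, a gene under 1 CPM in Bulk passes only where it is high in those. This holds for ABCC6 and ABCC9, and for APOE, GSTM2 and NR1I3 of the lists below. For these genes being tested and being higher than Bulk are not independent. A gene was called higher or lower where a two-sided exact binomial test on the reads of 2 libraries gave an adjusted p under 0.05 (Benjamini-Hochberg over 14585 genes) and the log2 ratio was at least 1 in size. Such a test compares libraries, not conditions. In Claret 4 of the 30 members were called higher than Bulk and 2 lower, where 11.2% and 6.67% of all genes tested were. In eGFP the counts were 5 and 2, against 11.9% and 7.6% of all genes, and in Violet 5 and 1, against 11.3% and 7.01%. As shares of the 30 members these are 13.3%, 16.7% and 16.7% higher and 6.67%, 6.67% and 3.33% lower, near the background of all genes. All members are protein-coding. Of the protein-coding genes tested, 9.62%, 10.4% and 9.64% were higher and 6.81%, 7.75% and 7.31% lower. On the scale log2(FPKM + 1), which shrinks the ratios of genes at low levels, ABCC3 and ABCG1 were the members called in each library, and a filter at 10 CPM removed ABCG2, ABCA4, ABCA8 and ABCC6 from the test. The members together took 0.155% of reads in Bulk and 0.177%, 0.185% and 0.185% in the rest. The 3 comparisons with Bulk share that 1 library, so their values are given side by side and not as repeats of one another.

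**Figure D1:**
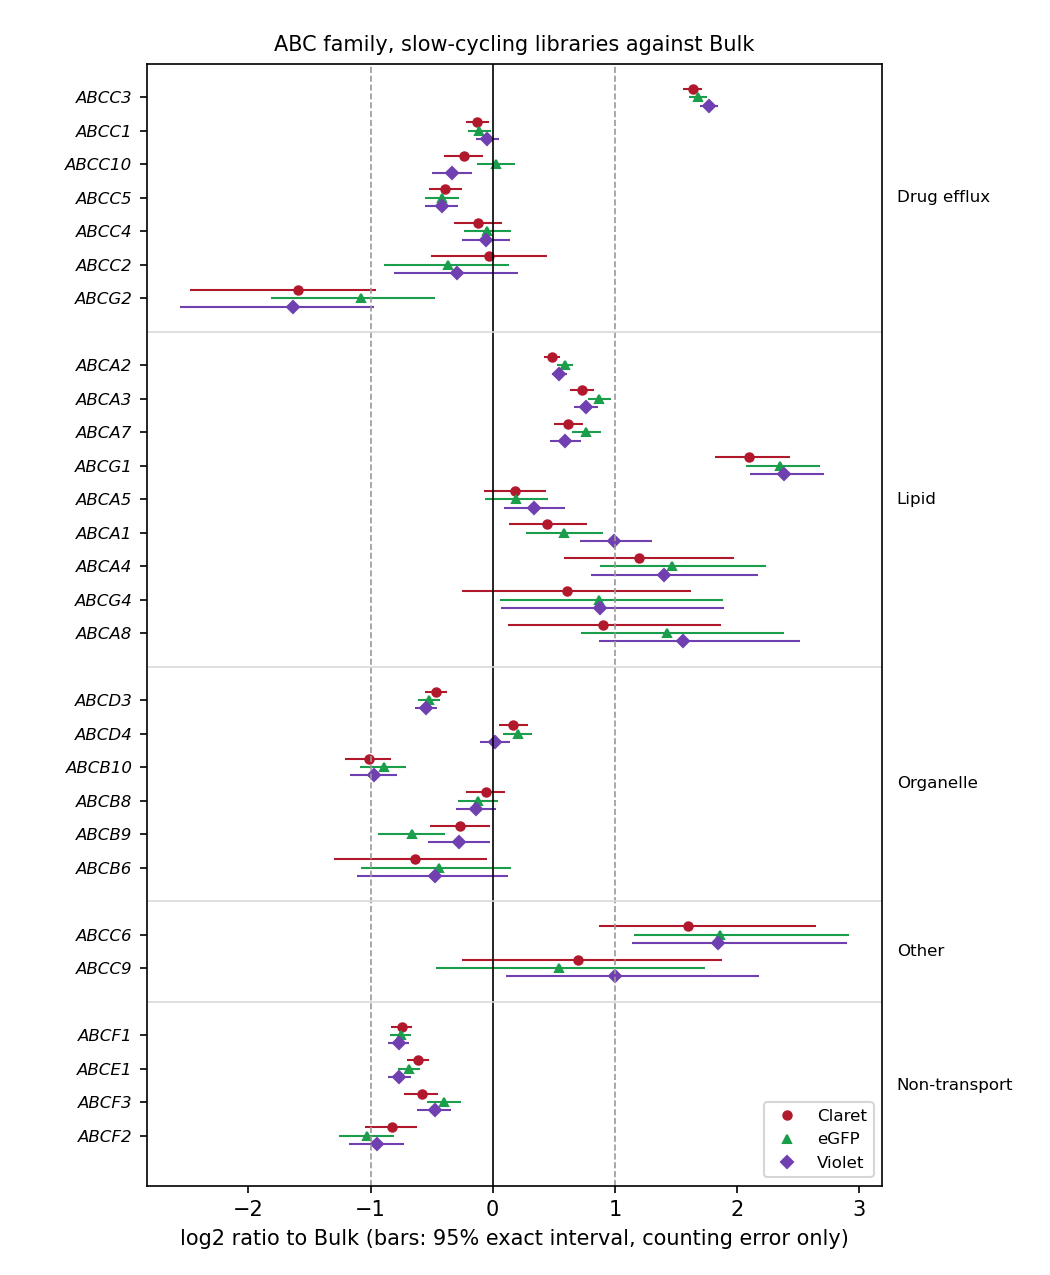
Log2 ratio to Bulk (x axis) of the members above 1 CPM (2 not drawn), grouped by role, with 95% exact intervals of the reads (bars, counting error only). Dashed lines mark a log2 ratio of 1 in size. ABCG1 lies farthest to the right, with ABCC3 and ABCC6 next, and ABCG2 lies to the left. ABCA4 in all 3 libraries and ABCA8 in eGFP and Violet are also past 1. The 4 non-transport members lie between -1.03 and -0.40.

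ABCC3 was the drug-efflux pump that rose in the slow-cycling libraries, and ABCG2 the one that fell. The other 5 pumps tested, ABCC1, ABCC2, ABCC4, ABCC5 and ABCC10, were not called in any of the 3. Thus 1 of 7 pumps was higher and 1 of 7 lower in each comparison, or 14.3% each way. Of all genes tested, 11.2%, 11.9% and 11.3% were higher and 6.67%, 7.6% and 7.01% lower. The pump medians were -0.12, -0.11 and -0.29, where the medians of all genes tested were -0.01, -0.01 and 0.00.

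ABCC3 (ENSG00000108846, chr17:50634777-50692252, plus strand) encodes a basolateral exporter of glucuronide conjugates, bile salts and some anticancer drugs. Bulk held 1781 of its reads, against 5959, 5747 and 6085. All 3 slow-cycling libraries were thus high and close to each other, at 3.11, 3.20 and 3.41 times Bulk after scaling, with log2 ratios of 1.64 (95% interval 1.56 to 1.71), 1.68 (1.60 to 1.76) and 1.77 (1.69 to 1.85). Per gene length its level was 11.9 FPKM (reads scaled to gene length and library size) in Bulk and 36.5, 37.4 and 39.4 FPKM after sorting for label. That placed it seventh of the 45 members in Bulk and at the top of them in the 3 others. In a bulk library, more cells with a transcript and more of it per cell cannot be told apart, and values are relative to the library's other RNA.

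ABCG2 (ENSG00000118777, chr4:88090264-88231322, minus strand) encodes the breast cancer resistance protein, known as the pump behind the side population of dye-excluding cells. Bulk held 63 of its reads, against 21, 29 and 19, so Bulk was the high library at a low level throughout (0.804 FPKM in Bulk, 0.235 to 0.36 FPKM elsewhere). Log2 ratios were -1.60 (-2.48 to -0.96), -1.08 (-1.82 to -0.47) and -1.64 (-2.56 to -0.97). The intervals overlap among the 3 libraries. ABCB1 (ENSG00000085563), P-glycoprotein, had 4 reads in Claret and 0 in Bulk, eGFP and Violet, where a count of 0 allows up to 3 reads, or 0.187, 0.189 and 0.193 CPM.

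ABCC1 (ENSG00000103222, chr16:15949577-16143074), the multidrug resistance protein that exports glutathione conjugates and anthracyclines, had 1932, 1907, 1802 and 1879 reads. The log2 ratios were -0.12 (-0.22 to -0.03), -0.11 (-0.20 to -0.02) and -0.04 (-0.14 to 0.05), a level close to Bulk in each. ABCC4, an exporter of cyclic nucleotides and prostaglandins, had 443, 439, 433 and 428 reads. Its intervals all included 0. ABCC5, which also exports cyclic nucleotides, had 996, 819, 751 and 747 reads, with log2 ratios of -0.39, -0.42 and -0.42 that were below 0 beyond counting error and short of a call. ABCC10, an exporter of taxanes among other drugs, had 673, 614, 691 and 536 reads, so eGFP lay at the Bulk level and Violet lowest. ABCC2, the apical pump of hepatocytes, had only 59 to 80 reads and intervals that included 0 in each comparison.

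The summed level of the 10 pumps was above Bulk with ABCC3 and below it without. It was 44.1 FPKM in Bulk and 63.96, 65.8 and 66.9 FPKM after sorting for label. Without ABCC3 the sum was 32.1 FPKM in Bulk and 27.4, 28.4 and 27.5 FPKM. ABCC3 made up 29.8% of pump reads in Bulk (95% exact Clopper-Pearson interval 28.68 to 31.02) and 60.5%, 60.4% and 62.3% in the slow-cycling libraries, while ABCC1 went from 32.4% to 19.4%, 18.9% and 19.2%.

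**Figure D2:**
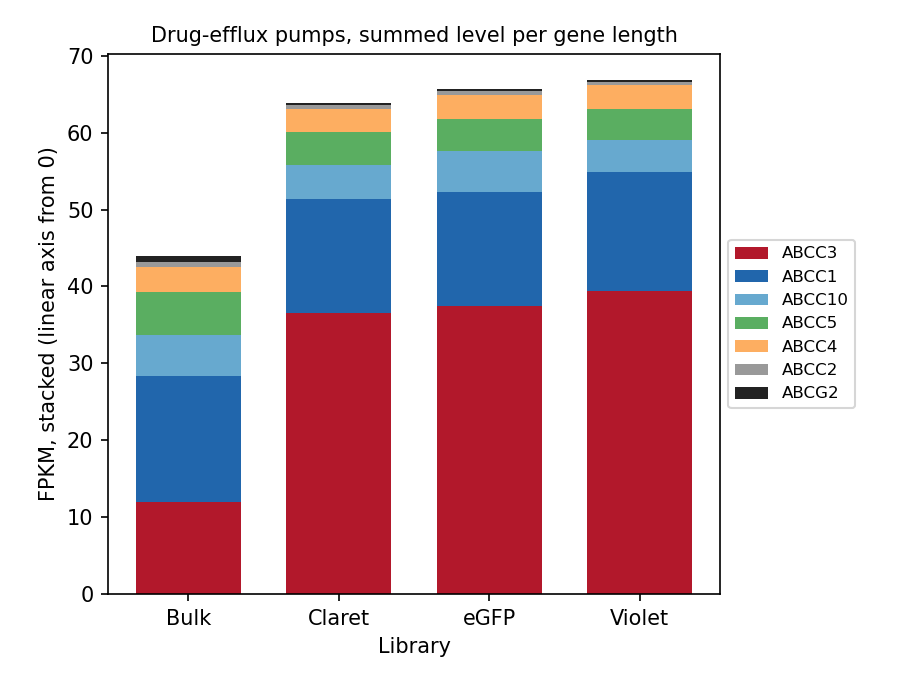
Summed FPKM (y axis, linear from 0) of the 7 drug-efflux pumps above 1 CPM in the 4 libraries, stacked by gene. The ABCC3 segment goes from 11.9 FPKM in Bulk to 36.5 to 39.4 FPKM in the others, and the ABCC1 segment stays between 14.8 and 16.4 FPKM.

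Lipid transporters lay above Bulk as a group. All 9 that were tested had log2 ratios above 0 in each of the 3 libraries, with medians of 0.62, 0.87 and 0.88, against medians near 0 over all genes. Of all 14585 genes tested, 7240, 7203 and 7305 were above 0. The numbers of lipid transporters called higher were 2, 3 and 3 of the 9 (22.2%, 33.3% and 33.3%), and none was lower. Over all genes tested, 11.2%, 11.9% and 11.3% were called higher and 6.67%, 7.6% and 7.01% lower. The remaining 8 of the 17 lipid transporters were under 1 CPM and were not tested.

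ABCG1 (ENSG00000160179, chr21:42199689-42297244, plus strand), which passes cholesterol to high-density lipoprotein and is a target of the LXR sterol receptors, showed the largest ratio of the 30 tested members in each library. It had 110, 515, 573 and 584 reads, which is 4.35, 5.17 and 5.30 times Bulk after scaling. Its log2 ratios were 2.10 (1.82 to 2.43), 2.35 (2.07 to 2.68) and 2.38 (2.11 to 2.71), with intervals that overlap one another and stand clear of 1. The level per gene length went from 1.16 FPKM to 4.96, 5.86 and 5.94 FPKM.

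ABCA4 (ENSG00000198691, chr1:93992835-94121132), the retinoid flippase of photoreceptors, had 26, 67, 76 and 72 reads. It rose in all 3, by log2 ratios of 1.20 (0.59 to 1.97), 1.47 (0.88 to 2.24) and 1.40 (0.80 to 2.17), from a level of 0.196 FPKM. ABCA8 (ENSG00000141338), a transporter linked to cholesterol export, had 18, 38, 52 and 57 reads. It was called higher in eGFP and Violet (log2 ratios 1.42 and 1.56) and not in Claret (0.90, interval 0.13 to 1.87).

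ABCA1 (ENSG00000165029, chr9:104781002-104928237), the exporter that loads lipid onto apolipoprotein A-I and another LXR target, had 142, 209, 215 and 286 reads. Violet was the high library. The log2 ratios were 0.45 (0.14 to 0.77), 0.58 (0.28 to 0.90) and 0.997 (0.71 to 1.31), all above 0 and all short of a call. The Violet value stood so near the line that scaling by library totals (1.05), a prior count of 0.5 (1.004), a GC correction (1.0045) or TMM factors from the genes above 1 CPM (1.001) called it higher.

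The most abundant lipid transporters lay above Bulk and were not called. ABCA2, of lysosomes, had 3323, 5005, 5047 and 4863 reads, with log2 ratios of 0.48, 0.59 and 0.55. ABCA3, known for loading surfactant lipid into lamellar bodies, had 1343, 2394, 2477 and 2289 reads, with log2 ratios of 0.73, 0.87 and 0.76. ABCA7, a phospholipid exporter, had 887, 1467, 1521 and 1343 reads, with log2 ratios of 0.62, 0.77 and 0.59. The intervals of all 3 genes lay above 0 in each library. ABCA5 had 238, 291, 274 and 302 reads, and only its Violet interval (0.09 to 0.59) lay above 0. ABCG4, a sterol transporter of neurons, had 17, 29, 33 and 33 reads, and its intervals lay above 0 in eGFP and Violet.

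Summed over the 17 lipid transporters, the level was 40.1 FPKM in Bulk and 62.4, 68.3 and 64.8 FPKM in the slow-cycling libraries. ABCA2, ABCA3 and ABCA7 held most of that sum in each library, so the called members ABCG1, ABCA4 and ABCA8 are a small part of the family's lipid-transporter RNA.

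**Figure D3:**
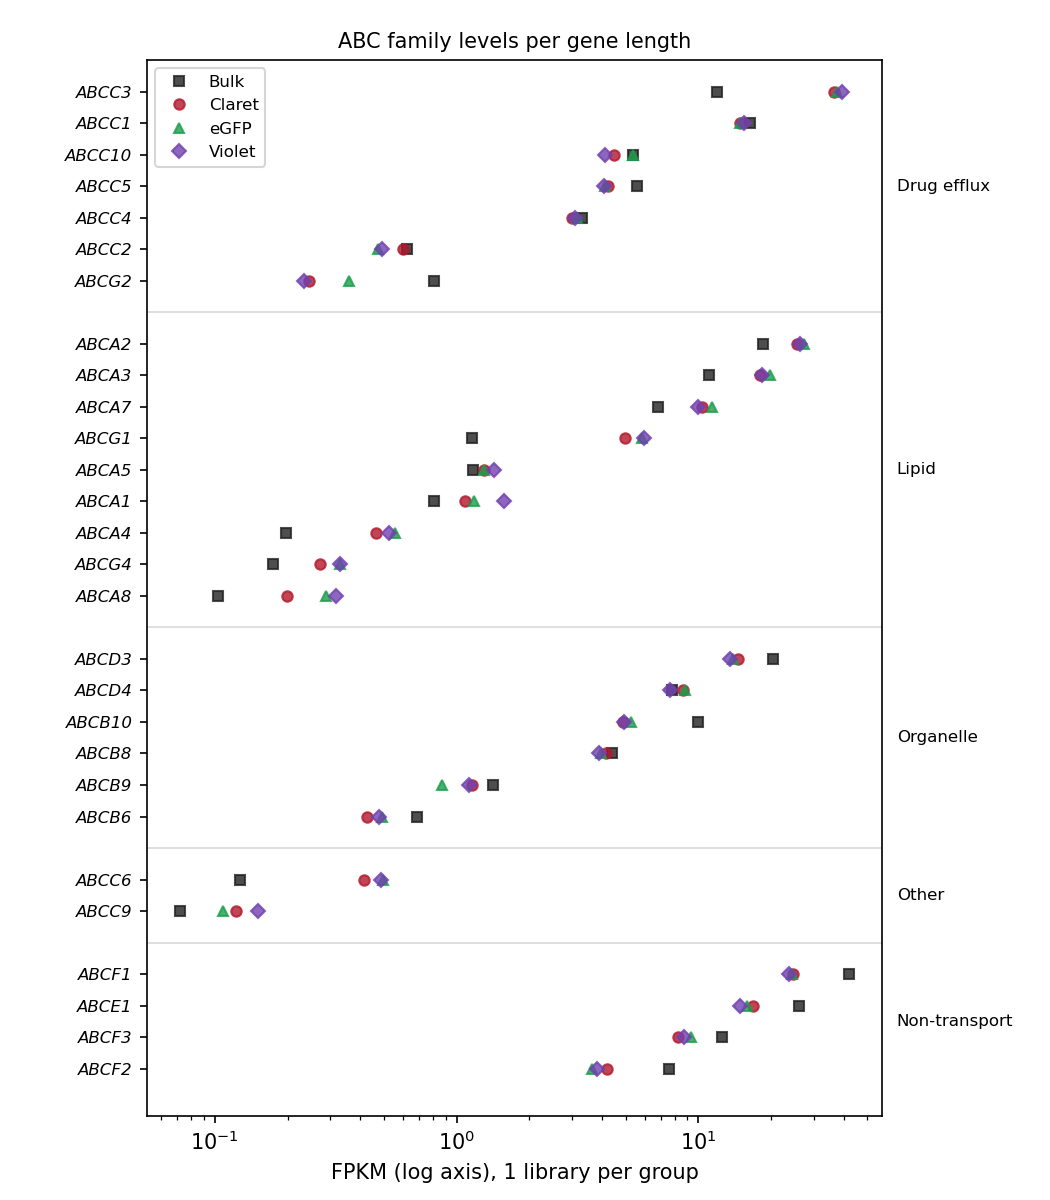
Deposited FPKM (x axis, log scale) of the members above 1 CPM (2 not drawn) in the 4 libraries (1 point a library), grouped by role. Bulk squares lie left of the other symbols for the 9 lipid transporters and right of them for the 4 non-transport members, and ABCF1 leads in Bulk at 41.9 FPKM where ABCC3 leads elsewhere.

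The 4 non-transport members lay below Bulk. All had log2 ratios below 0 with intervals below 0 in each slow-cycling library, with medians of -0.68, -0.72 and -0.77. Only ABCF2 in eGFP passed the call, where 7.6% of all genes tested were lower in eGFP. Their summed level was 88.0 FPKM in Bulk and 53.8, 53.1 and 51.2 FPKM in the slow-cycling libraries.

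ABCE1 (ENSG00000164163, chr4:145097932-145129179) splits ribosomes for recycling after termination. It had 2536, 1789, 1591 and 1497 reads, with log2 ratios of -0.61 (-0.70 to -0.52), -0.68 (-0.77 to -0.59) and -0.76 (-0.86 to -0.67). ABCF1 (ENSG00000204574, chr6:30571376-30597179), which binds initiation factor eIF2, had 2942, 1887, 1757 and 1730 reads. Its level went from 41.9 FPKM, the highest of the family in Bulk, to 24.6, 24.3 and 23.8 FPKM, with log2 ratios of -0.75, -0.75 and -0.77. Bulk was the high library for both genes.

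ABCF2 (ENSG00000033050, chr7:151212490-151227230) had 491, 297, 242 and 255 reads. Its log2 ratios were -0.83 (-1.04 to -0.62), -1.03 (-1.26 to -0.81) and -0.94 (-1.17 to -0.73), and the eGFP call was lost with scaling by library totals (-0.9999). Of the 31-base words in its transcripts, 48.3% also occur in other genes, and a gene listed as AC021097.2 overlaps 45.8% of its exon bases, so its reads are uncertain. With the reads of ABCF2P1, AC021097.2 and ABCF2P2 added (492, 297, 243 and 255), the log2 ratios were -0.83, -1.02 and -0.95. Any reads left unassigned because of the shared sequence do not enter that sum. ABCF3 (ENSG00000161204, chr3:184186023-184194012) had 1011, 726, 773 and 728 reads, with log2 ratios of -0.58, -0.40 and -0.48. ABCE1 shares 24.1% of its 31-base words with other genes.

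Upstream sequence of these 4 genes is shown because all 4 lay below Bulk. These are the 250 bases before the RefSeq start on GRCh38.p14, read 5′ to 3′ on the gene's strand, with capitals for the GC box GGGCGG on either strand. The windows are chr4:145098061-145098310 for ABCE1, chr6:30571192-30571441 for ABCF1, chr7:151227206-151227455 for ABCF2 and chr3:184185949-184186198 for ABCF3. By the gene spans of the count table, the ABCE1 window lies wholly inside the gene, past its start. The ABCF1, ABCF2 and ABCF3 windows reach partly into their genes.
ABCE1: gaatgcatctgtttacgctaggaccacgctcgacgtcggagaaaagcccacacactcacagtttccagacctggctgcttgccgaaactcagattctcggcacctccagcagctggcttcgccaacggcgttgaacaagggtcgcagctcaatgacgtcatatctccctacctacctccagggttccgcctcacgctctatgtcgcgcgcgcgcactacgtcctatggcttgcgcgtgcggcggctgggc
ABCF1: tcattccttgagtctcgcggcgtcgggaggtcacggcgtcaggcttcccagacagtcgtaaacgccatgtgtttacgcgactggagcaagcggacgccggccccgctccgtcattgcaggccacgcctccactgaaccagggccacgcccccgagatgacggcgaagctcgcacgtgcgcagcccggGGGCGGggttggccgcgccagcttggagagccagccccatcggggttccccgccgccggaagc
ABCF2: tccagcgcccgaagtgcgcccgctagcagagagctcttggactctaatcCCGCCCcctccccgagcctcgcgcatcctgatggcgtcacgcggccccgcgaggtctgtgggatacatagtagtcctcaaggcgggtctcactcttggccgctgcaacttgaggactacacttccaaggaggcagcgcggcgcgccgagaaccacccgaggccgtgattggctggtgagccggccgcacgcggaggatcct
ABCF3: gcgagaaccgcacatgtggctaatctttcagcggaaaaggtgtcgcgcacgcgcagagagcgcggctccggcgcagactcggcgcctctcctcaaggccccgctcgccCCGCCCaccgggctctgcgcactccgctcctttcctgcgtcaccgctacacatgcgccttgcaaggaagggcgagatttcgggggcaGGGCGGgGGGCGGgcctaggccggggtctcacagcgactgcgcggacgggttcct
ABCE1 holds 0 GC boxes in this window, ABCF1 and ABCF2 hold 1 each and ABCF3 holds 3. The window of ABCG2, which fell in all 3 libraries, is chr4:88231627-88231876 on the minus strand. It holds 0 GC boxes and 2 CpG pairs, where the 4 above hold 24 to 31. The median over 27305 promoters of all genes is 11 CpG pairs, and ABCA5 and ABCC4, neither called, hold 42 each. This ABCG2 window lies outside the gene's span in the count table (chr4:88090264-88231322), and windows at other starts of ABCG2 were not searched.
ABCG2: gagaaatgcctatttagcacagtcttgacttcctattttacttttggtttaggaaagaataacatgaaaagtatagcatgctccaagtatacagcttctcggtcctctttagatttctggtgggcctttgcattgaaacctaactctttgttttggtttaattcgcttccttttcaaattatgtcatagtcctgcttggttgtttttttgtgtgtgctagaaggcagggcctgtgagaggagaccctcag

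Promoter windows were found for 35 of the 45 members in the RefSeq table, and the same 250 bases were searched in 27305 promoters of all genes. ABCC3, ABCG1 and ABCC1 had no entry. At least 1 GC box was in 18 of the 35 members' windows (51.4%) and in 42.3% of all promoters. The AP-1 motif TGANTCA, looked for because the series title names AP-1, was in 1 of 35 (2.86%), that of ABCB11, and in 6.6% of all promoters, both strands searched. The E-box CACGTG was in 4 of 35 (11.4%) against 6.49%, the antioxidant element TGACNNNGC in 6 (17.1%) against 11.0%, and the CCAAT box in 6 (17.1%) against 33.0%. The E2F motif TTTNNCGC was in 2 (5.71%) against 5.93%, the ATF4 and CEBP motif TGATGNAA in 1 (2.86%) against 3.19%, and the LXR element (AGGTCA repeated with 4 free bases between) in 0 against 4 of all promoters. A match is a string of letters in this window and not a site.

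Of the organelle transporters, 8 of 9 were tested and 1 was called, ABCB10 lower in Claret, where 6.67% of all genes tested were lower. ABCB10 (ENSG00000135776, chr1:229516582-229558695), a transporter of the mitochondrial inner membrane in heme-forming cells, had 662, 352, 358 and 338 reads. Its log2 ratios were -1.01 (-1.21 to -0.83), -0.89 (-1.09 to -0.71) and -0.97 (-1.17 to -0.78), alike in all 3, and the Claret call was lost with scaling by library totals (-0.99) or a GC correction (-0.995). ABCD3, a fatty acyl transporter of peroxisomes, had 2412, 1883, 1691 and 1653 reads, with log2 ratios of -0.46, -0.52 and -0.55.

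ABCB8, of mitochondria, had 635, 657, 589 and 580 reads, and ABCD4, which moves cobalamin out of lysosomes, had 1061, 1283, 1231 and 1079. Their log2 ratio farthest from 0 was 0.20, that of ABCD4 in eGFP. ABCB9, a lysosomal peptide transporter, had 291, 260, 185 and 241 reads, so eGFP was lowest (-0.66), and 27.3% of its 31-base words occur in other genes. ABCB6, a porphyrin transporter, had 56, 38, 41 and 40 reads, and a gene listed as AC068946.2 overlaps 54.7% of its exon bases. Summed over the 9 genes the level was 54.5 FPKM in Bulk and 45.1, 46.6 and 43.5 FPKM in the others.

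Of the 5 other transport members 2 were tested, and ABCC6 rose in all 3 libraries. Both tested genes were under 1 CPM in Bulk (0.952 for ABCC6 and 0.825 for ABCC9, after scaling). They passed the filter only through the slow-cycling libraries, where they were higher. ABCC6 (ENSG00000091262, chr16:16148928-16223522), whose loss causes pseudoxanthoma elasticum, had 15, 53, 60 and 59 reads. The log2 ratios were 1.59 (0.87 to 2.65), 1.86 (1.15 to 2.91) and 1.84 (1.14 to 2.90). It shares 23.1% of its 31-base words with other genes, chiefly its pseudogenes ABCC6P1 and ABCC6P2, and with their reads added (26, 68, 66 and 76) it was still called, at lower log2 ratios of 1.22, 1.27 and 1.48, or 2.43, 2.52 and 2.92 times Bulk in place of 3.28, 3.97 and 3.92. ABCC9, the regulatory subunit of a potassium channel, had 13, 24, 20 and 28 reads. Its Violet value (0.999, interval 0.11 to 2.18) was short of a call and passed it with scaling by library totals (1.05), a prior count of 0.5 (1.075), a GC correction (1.05) or TMM factors from the genes above 1 CPM (1.003).

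The 15 members under 1 CPM were not tested, and no direction is given for them. ABCB5, ABCA9, ABCG5 and ABCB11 had 0 reads in all 4 libraries. ABCA10 was the one of the 15 with at least 10 reads in a library, with 3, 12, 8 and 17. The others, among them ABCC11, ABCB4, ABCG8 and ABCC8, had 8 reads or fewer in each library.

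Between slow-cycling libraries no member was called, where 0.713%, 0.788% and 0.932% of all genes were called in either direction in Claret against eGFP, Claret against Violet and eGFP against Violet. At an unadjusted p under 0.05 by the same exact test there were 8, 8 and 7 of 30 members, against 24.5%, 28.3% and 28.5% of all genes. ABCA1 was lower in Claret than in Violet by a log2 ratio of -0.55 (-0.82 to -0.29) and in eGFP than in Violet by -0.42 (-0.68 to -0.16). ABCC10 was -0.27 (-0.43 to -0.11) in Claret against eGFP and 0.36 (0.19 to 0.52) in eGFP against Violet, so eGFP was its high library. ABCG1 was -0.25 (-0.42 to -0.08) in Claret against eGFP and -0.28 (-0.46 to -0.11) in Claret against Violet, so Claret was its low library. This was not particular to ABCG1. Of the 9 lipid transporters tested, 9 were below 0 in Claret against eGFP and 8 in Claret against Violet, with 4 intervals below 0 in each. Of all 14585 genes tested, 7223 and 7006 were below 0. ABCC3 was close in all 3, at -0.04 (-0.10 to 0.01), -0.13 (-0.18 to -0.08) and -0.09 (-0.14 to -0.04) in the same order of pairs.

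**Figure D4:**
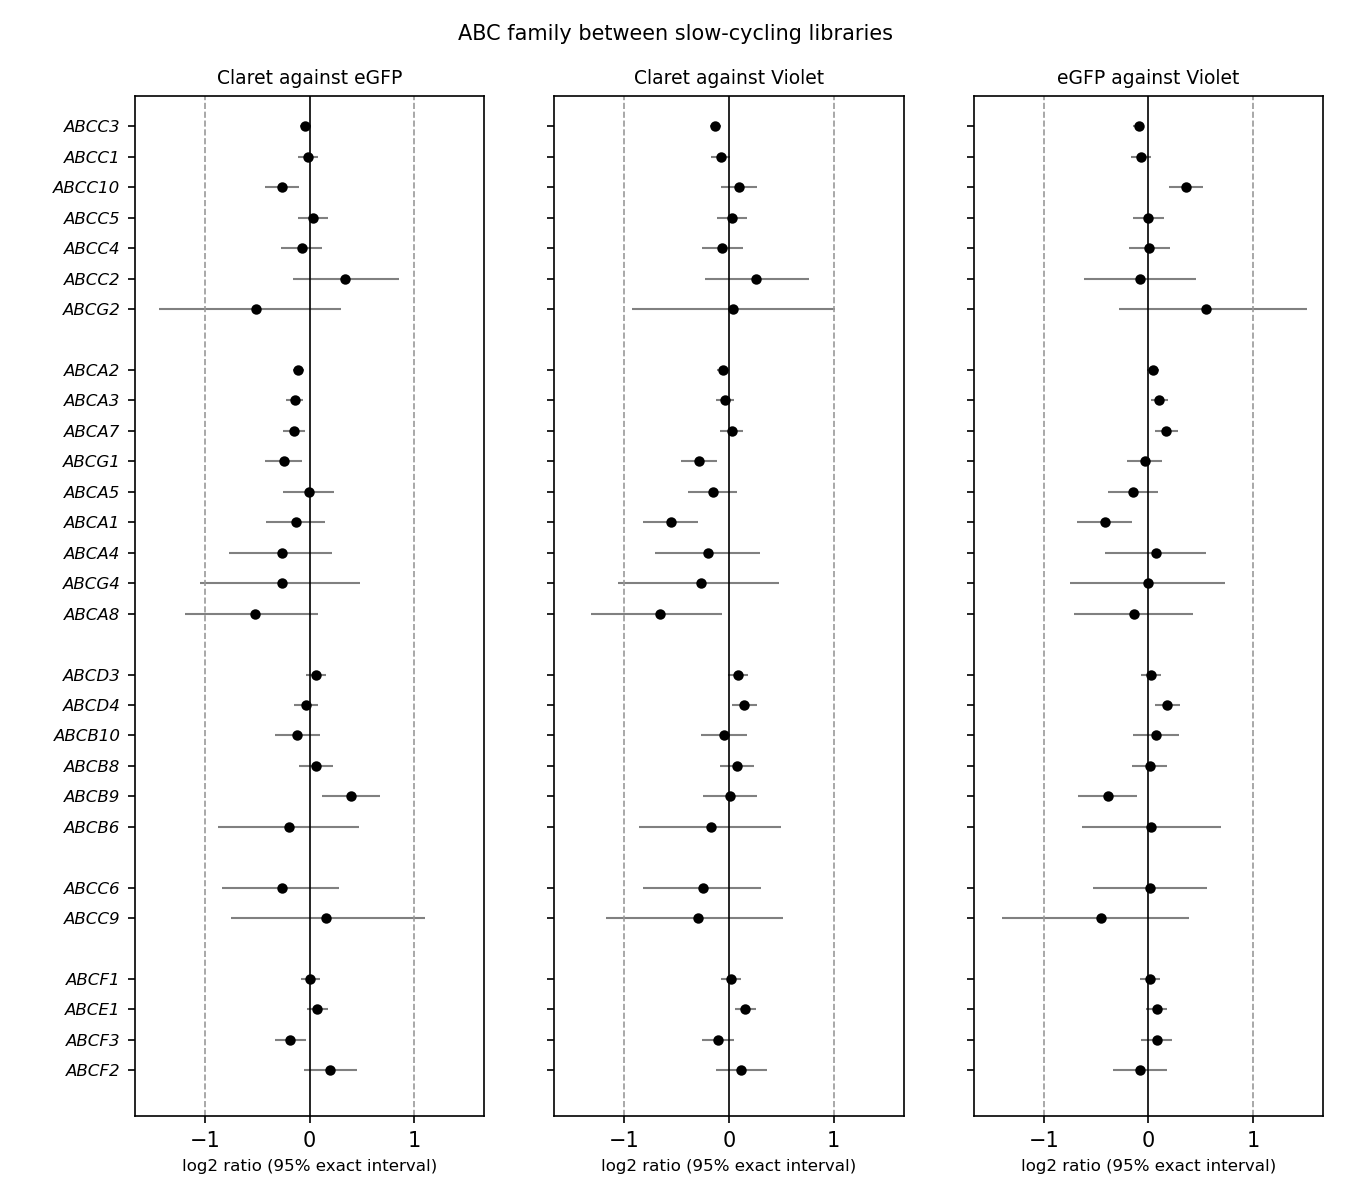
Log2 ratio (x axis) between each pair of slow-cycling libraries for the members above 1 CPM (2 not drawn), with 95% exact intervals of the reads (bars). No point passes the dashed lines at 1 in size, and ABCA1 lies left of 0 in both panels that involve Violet.

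Of 16 genes of sterol handling outside the family, 2 were called higher and 1 lower in Claret, 4 and 0 in eGFP, and 2 and 0 in Violet, where 11.2%, 11.9% and 11.3% of all genes tested were higher and 6.67%, 7.6% and 7.01% lower. APOE, the apolipoprotein that carries sterol, rose by log2 ratios of 2.80, 3.10 and 2.37 from 5 reads in Bulk, and PLTP, the phospholipid transfer protein, by 1.74, 1.85 and 1.44 from 22 reads. On log2(FPKM + 1) no PLTP call was left (0.92, 0.99 and 0.71), nor the Violet call of APOE (0.78), the eGFP calls of NR1H3 (0.77) and NPC1 (0.95) or the Claret call of SCARB1 (-0.93). NR1H3, which encodes an LXR receptor, was called in eGFP (1.01, and 0.94 with a GC correction) and had 0.94 and 0.81 in Claret and Violet. NPC1, which exports cholesterol from lysosomes, was called in eGFP (1.06) and had 0.90 and 0.95 in the others, the last called with scaling by library totals (1.004). SCARB1, a lipoprotein receptor, was lower in Claret (-1.001), a call lost with DESeq2 size factors (-0.995) or scaling by library totals (-0.98).

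Of 11 regulators of efflux genes, 10 were tested, and 1 was higher and 1 lower in each library, against the same shares of all genes. NR1I3, a xenobiotic receptor, rose from 14 reads to 34, 38 and 39 (log2 ratios 1.07, 1.31 and 1.36), and KEAP1, the inhibitor of NRF2, fell from 1830 reads to 966, 872 and 874 (-1.03, -1.08 and -1.07). The Claret call of NR1I3 was lost with no filter on low counts, and all 3 on log2(FPKM + 1) (0.34, 0.43 and 0.45). NFE2L2, which encodes NRF2, had log2 ratios of 0.72, 0.65 and 0.57. Of 20 genes of glutathione conjugation and other efflux, 2 were higher in Claret and in eGFP and 1 in Violet, against 11.2%, 11.9% and 11.3% of all genes. These were GSTM2, a glutathione transferase with close paralogs and 8 reads in Bulk (3.01, 2.99 and 2.68), and MVP, the major vault protein (1.01, 1.04 and, not called, 0.9997). A GC correction took the MVP calls away (0.87 and 0.88), and library totals (1.05), DESeq2 size factors (1.001), a prior count of 0.5 (1.0001) or TMM factors from the genes above 1 CPM (1.004) called it in Violet too. On log2(FPKM + 1) neither gene was called (0.55, 0.54 and 0.43 for GSTM2, 0.96 and 0.98 in Claret and eGFP for MVP).

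None of 12 tested genes of ribosome termination and recycling was called, with medians of -0.40, -0.32 and -0.37, and none of 19 of iron-sulfur and heme synthesis, with medians of -0.06, -0.26 and -0.27. Of 21 peroxisomal genes, PEX6 alone was called, higher in eGFP (1.11, and 0.95 with a GC correction). Over all genes tested, 11.2%, 11.9% and 11.3% were called higher and 6.67%, 7.6% and 7.01% lower. TAP1 and TAP2, the antigen-peptide transporter of the same family, were not called (0.19, 0.45 and 0.23 for TAP1, -0.75, -0.77 and -0.89 for TAP2), and CFTR had 0 reads.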

How the data were processed

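Per the submitters' processing notes, HISAT2 2.0.5 and featureCounts 1.5.0-p3 were used. The build, the strand setting and the treatment of multimapped reads are not given in the sources used here. The start and end of 58724 of 58735 genes, all 45 members included, match GENCODE 29 (GRCh38). The authors deposited raw counts per gene and FPKM values, and within a library FPKM times gene length over the count was constant.

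Counts were scaled with edgeR 4.0.16 (TMM factors on the whole table), and log2 ratios of CPM used a prior count of 2 for genes with a mean of at least 1 CPM. Exact conditional binomial tests (SciPy 1.17.1, smaller tail doubled) with Benjamini-Hochberg adjustment and 95% exact intervals compared the reads of 2 libraries. With 1 library a group, edgeR's quasi-likelihood fit leaves no residual degrees of freedom. Reads are not independent molecules, so intervals and floors (3 reads) cover counting error only. The script was tested on simulated data.

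The members and gene lists were chosen with earlier results of these data known. TMM factors were first computed on the genes above 1 CPM and then on the whole table, and the second was kept after both results had been seen, because it gave the counts of that earlier work. With the first, ABCA1 and ABCC9 were also called higher in Violet. The motifs, the promoters printed (ABCC3, ABCG1 and ABCC1 were sought first) and the genes whose copies were summed were also chosen after values were seen. Members above 1 CPM are named (except 2 that enter the counts, medians and sums and are not reported here), with those of at least 10 reads in a library below it, and up to 3 called genes in each direction from each list. Alternatives were other scalings (library totals, DESeq2 1.42.0 size factors), other filters and prior counts, log2(FPKM + 1), groups from the treatment field, GC correction, and a log2 threshold of 0.58.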

Additional observations from a re-analysis of the deposited data

How the results depend on the processing

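With 1 library a group no replicate could be left out, and no fold in the small-count members (ABCG2, ABCA4, ABCA8, ABCC6, ABCC9, with 13 to 76 reads) is known better than its interval. No paired analysis was possible because each group has 1 library and the labels give no replicate numbers. Of the 19 calls of members against Bulk, those of ABCC3 and ABCG1 held under each alternative that kept the titles. DESeq2 size factors changed no count of members, and moved no median by more than the median half-width of its members' intervals. Library totals, a prior count of 0.5, the GC correction and TMM factors from the genes above 1 CPM each took members higher in Violet from 5 to 7 (with ABCA1 and ABCC9) and lipid transporters from 3 to 4, and no filter on low counts took them to 6 and 4. TMM factors from the genes above 1 CPM, added after seeing the data, took the other transport members called higher in Violet from 1 to 2, as did a prior count of 0.5 (2), library totals (2) and the GC correction (2). Sums of reads with sequence-sharing genes, also added later, left all 12 results on the same side of the threshold.

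With library totals, members called lower were 1 in Claret and 1 in eGFP, with 0 organelle members in Claret and 0 non-transport members in eGFP. With the GC correction, 1 member was lower in Claret and 0 of the organelle members. A filter at 10 CPM, which removes ABCG2, ABCA4, ABCA8 and ABCC6, left 2 members higher in each library and 1, 1 and 0 lower in Claret, eGFP and Violet, 0 pumps lower and 1 lipid transporter higher in each, and a pump median of -0.053 in Violet. On log2(FPKM + 1), 2 members were higher and 0 lower in each library, with 1 lipid transporter higher, 0 other transport members higher and 0 pumps lower in each, 0 organelle members lower in Claret and 0 non-transport members lower in eGFP. The lipid medians on that scale were 0.29, 0.38 and 0.48, the pump median in Violet -0.12 and that of other transport members in Violet 0.25. With no filter on low counts the pump median in Violet was -0.048, and those of other transport members were 0 in Claret and eGFP, where members with no reads enter.

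At a log2 threshold of 0.58, 7, 10 and 10 members were higher and 6, 6 and 5 lower in Claret, eGFP and Violet. Lipid transporters higher were then 5, 7 and 7, non-transport members lower 4, 3 and 3, organelle members 1 higher and 2 lower in eGFP and 1 lower in Violet, and other transport members 2 higher in Violet.

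Groups from the treatment field changed the results most, since that field calls the library titled Violet un-gated and the library titled Bulk Claret. The log2 ratios in Claret were then -1.77 for ABCC3, 1.64 for ABCG2, -1.40 for ABCA4, -1.56 for ABCA8, -2.38 for ABCG1, 0.97 for ABCB10 and -1.84 for ABCC6. In eGFP they were -0.13 for ABCC3, 0.038 for ABCG2, -0.20 for ABCA4, -0.66 for ABCA8, -0.28 for ABCG1, 0.12 for ABCF2 and -0.25 for ABCC6, and in Violet -0.089 for ABCC3, 0.56 for ABCG2, -0.13 for ABCA8 and -0.034 for ABCG1. Between Claret and eGFP, ABCG2 was then 1.597 and ABCB10 1.013. For list genes in Claret the field gave -1.36 for NR1I3, 1.07 for KEAP1, -0.9997 for MVP, -2.68 for GSTM2, -2.37 for APOE, -1.44 for PLTP, 0.93 for SCARB1, 2.89 for MKI67, 2.10 for TOP2A, 2.20 for CCNB1, 1.88 for CDK1, 2.79 for BIRC5, 2.04 for PCNA and 2.24 for MCM2. In eGFP it gave -0.28 for NR1I3, 0.042 for KEAP1, -0.049 for NPC1, 0.018 for MKI67, 0.13 for CCNB1, 0.12 for BIRC5 and 0.12 for PCNA, and in Violet -0.042 for NR1I3.

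By that field 1 member was higher and 5 lower in Claret and 0 in either direction in eGFP and Violet, while 2 were higher and 4 lower in Claret against eGFP and 2 and 5 in Claret against Violet. Lipid transporters were 0 higher and 3 lower in Claret, other transport members 0 higher and 1 lower, and organelle members 0 lower, with 0 calls in each role in eGFP and Violet. Pump medians became 0.29 in Claret and 0.00069 in Violet. Medians in Claret, eGFP and Violet became -0.88, -0.20 and -0.0066 for lipid transporters, 0.20, 0.042 and 0.051 for organelle members, -1.42, -0.27 and -0.22 for other transport members, and 0.77, 0.070 and 0.047 for non-transport members.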
